A study of Mus musculus with 2 samples.

Results

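The Ms4a genes encode membrane-spanning proteins that cross the cell membrane several times and sit beside immune receptors, many of them in myeloid cells. Some have well-described roles: Ms4a1 encodes CD20 of B cells, and Ms4a2 encodes the beta chain of the high-affinity IgE receptor of mast cells and basophils. Ms4a3, whose protein is known as HTm4, is transcribed in granulocyte-monocyte progenitors (GMPs), and Ms4a3 reporter mice are used to trace the cells that descend from GMPs. The other genes described here are best known from monocytes and macrophages. The 6 genes Ms4a3, Ms4a4c, Ms4a6b, Ms4a6c, Ms4a6d and Ms4a7 were taken by symbol from the 24421 symbols listed, and all 6 were found. Another 11 symbols of the family were listed and are used for comparison.

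GMPs were sorted by flow cytometry from the bone marrow of female mice, and their total RNA was sequenced in bulk. One library came from non-tumor-bearing control mice (NTB-GMP) and the other from mice with orthotopic implants of the mouse mammary carcinoma line 4T1 (4T1-GMP). Both groups were labelled as F1 mice of a semi-syngeneic H-2b/d background, and neither the labels nor the study's methods give the number of mice behind a library. With 1 library per group there was no replicate and no test: each difference below is between these 2 libraries, and it cannot be told apart from a difference between mice, sorts or library preparations. The values are RPKM, reads normalized to gene length and to library size, as the authors deposited them. Since RPKM are per length, levels of different genes can be compared within a library.

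The library sizes implied by the RPKM were 10180365 reads for NTB-GMP and 30016263 reads for 4T1-GMP, a 2.95-fold difference in depth. The ribosomal RNA precursor Rn45s took 17.0% of the first and 6.98% of the second. Leaving it out would move the median log2 ratio of all genes by -0.16. Log2 ratios are 4T1-GMP over NTB-GMP with 0.1 RPKM added to each value, so changes of low genes are understated. Intervals are 95% Clopper-Pearson intervals on the recovered reads, scaled by library size. They cover no more than counting error, since PCR copies were not told apart by molecular identifiers. Genes tested are those with a mean RPKM of 1 or more. A gene under 1 RPKM in 1 library enters only through the library where it is higher, which favours large ratios. Of 10378 such genes, 3.25% were 2-fold or more higher in 4T1-GMP and 4.92% were 2-fold or more lower. With Rn45s left out of both library sizes these shares were 2.51% and 6.75%.

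Genes of the GMP gate and of primary granules were present in both libraries. Mpo, the myeloperoxidase of primary granules, stood at 5163 RPKM in NTB-GMP against 5625 RPKM in 4T1-GMP, and Elane, neutrophil elastase, at 1853 and 2935 RPKM. Kit, the stem cell factor receptor by which the study's methods select GMPs for culture, stood at 78.5 and 49.1 RPKM. Other gate genes differed in both directions. Cd34 stood at 154 and 59.4 RPKM and Fcgr3 at 53.1 and 28.6 RPKM, whereas Fcgr2b stood at 47.3 and 64.6 RPKM. Markers of other lineages were mixed. Cd3e of T cells had no recovered read in NTB-GMP and 1 in 4T1-GMP, whereas Cd79b, a B cell receptor component, stood at 14.7 and 12.4 RPKM, Itga2b, an integrin of megakaryocytes and early progenitors, at 12.8 and 4.43 RPKM, and Nkg7 at 190 and 337 RPKM. S100a9, a calcium-binding protein abundant in neutrophils, stood at 189 RPKM in NTB-GMP against 1974 RPKM in 4T1-GMP.

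Ms4a3 dominated the family and was the only member above 100 RPKM. It was 2.54 times as high in 4T1-GMP as in NTB-GMP. Ms4a6d was also higher, by 4.22-fold but from a level below 1 RPKM. Ms4a6c and Ms4a6b were each lower by more than 2-fold, Ms4a4c rested on 8 reads in 4T1-GMP, and Ms4a7 was listed at 0 in both libraries. Of the 6 members, 4 were among the genes tested, and Ms4a6d was so only through its 4T1-GMP value. As a description, Ms4a3 and Ms4a6d were past 2-fold higher, as were 3.25% of all genes tested, and Ms4a6c and Ms4a6b were past 2-fold lower, as were 4.92%. Ms4a6b did not stay past 2-fold under every setting tried, as given with its values, and with a minimum mean RPKM of 5 only Ms4a3 was counted as higher.

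**Figure D1:**
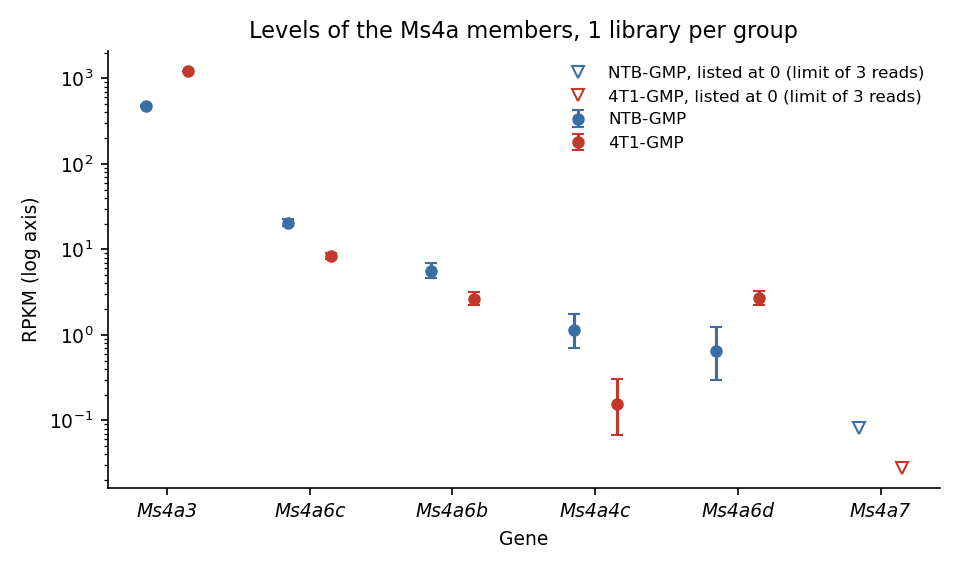
RPKM of the 6 Ms4a members on a log axis in NTB-GMP (blue) and 4T1-GMP (red), 1 library each, with exact 95% Poisson intervals on the recovered reads as bars. Ms4a3 sits far above the rest in both libraries, Ms4a6d is the only other member with the 4T1-GMP point on top, and the open triangles for Ms4a7 mark the RPKM that 3 reads would give.

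Ms4a3 lies on chromosome 19 of GRCm38 (mm10) from 11629496 to 11640851 on the minus strand, at the right-hand end of the Ms4a gene cluster. It stood at 479 RPKM in NTB-GMP, from 4924 recovered reads. In 4T1-GMP it stood at 1220 RPKM, from 36935 reads. The libraries did not overlap in counting error, with exact Poisson intervals of 466 to 493 and 1207 to 1232 RPKM. The log2 ratio was 1.35 (interval 1.30 to 1.39), above that of 98.1% of the genes tested. Its rank among all symbols went from 120 in NTB-GMP to 44 in 4T1-GMP. As a share of the summed RPKM of the 17 Ms4a symbols listed, Ms4a3 made up 86.3% in NTB-GMP and 97.8% in 4T1-GMP. The log2 ratio was 1.18 with library sizes that omit Rn45s and 1.19 after quantile normalization, so it stayed past 2-fold under both scalings.

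The genes nearest to Ms4a3 in their pair of levels were Hmgn2, a nucleosome-binding protein gene, at 540 and 919 RPKM, Hist4h4, a histone H4 gene, at 406 and 857 RPKM, and Arhgdib at 473 and 801 RPKM. Nearness was the distance on the log2(RPKM + 0.1) scale over these 2 libraries, and it came to 0.44, 0.56 and 0.61. All 3 lay lower than Ms4a3 in 4T1-GMP, and no gene tested came closer than 0.44. The scatter of all genes tested shows Ms4a3 above the 2-fold line near the upper end of the range.

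**Figure D2:**
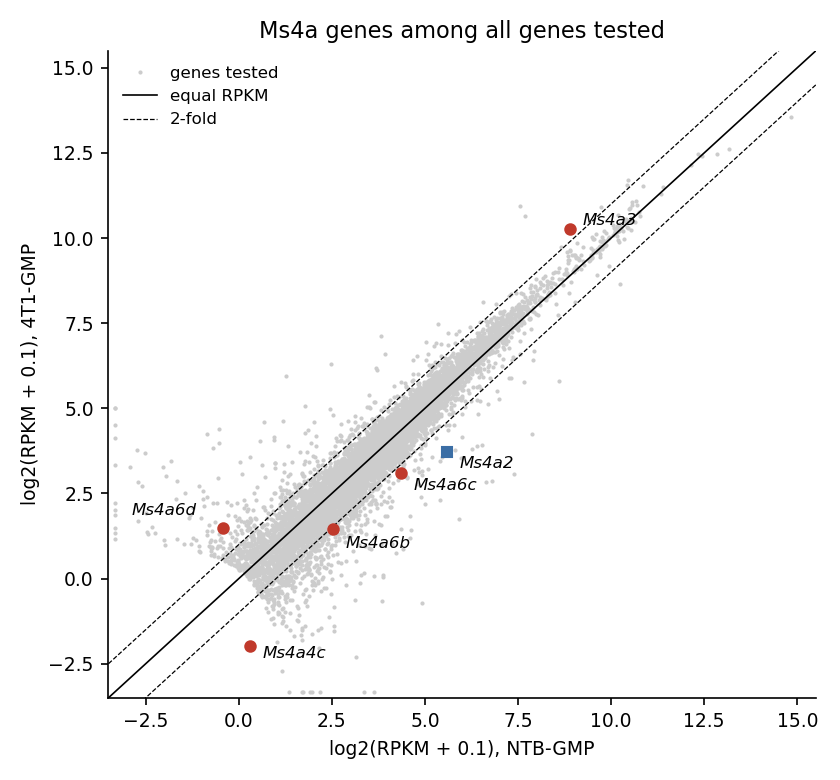
Each grey point is 1 of the 10378 genes tested, placed by log2(RPKM + 0.1) in NTB-GMP (horizontal) and 4T1-GMP (vertical). Ms4a3 and Ms4a6d lie above the upper 2-fold line, Ms4a6c and Ms4a2 below the lower line, Ms4a6b just below it, and Ms4a4c, whose mean is under 1 RPKM, in the lower left.

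Of the 5 members with a promoter window, Ms4a3 was the only one whose window held the PU.1 letters searched for. PU.1, encoded by Spi1, is the ETS transcription factor of early myeloid cells. The 250 bases before the RefSeq start are printed because the motif falls in them, with capitals for the PU.1 match (GGGAAGTG, positions -56 to -49 counted back from the start). The window is chr19:11640852-11641101 of GRCm38.p6, read on the minus strand.
Ms4a3: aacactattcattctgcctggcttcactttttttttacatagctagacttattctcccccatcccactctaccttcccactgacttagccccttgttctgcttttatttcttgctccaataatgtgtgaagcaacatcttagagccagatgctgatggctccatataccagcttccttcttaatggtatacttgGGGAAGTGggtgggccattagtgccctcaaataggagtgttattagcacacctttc
The PU.1 motif (GAGGAAGT or GGGAAGTG, both strands) occurred in 4.38% of 32851 mouse promoter windows of this length. Its core, GGAA, is contained in it and is common, with 93.4% of windows holding at least 1 copy. Ms4a3 had 3 GGAA copies on either strand, 1 of them inside the PU.1 match. Also searched on both strands were an ETS-IRF composite (GGAANNGAAA, 2.30% of windows), an interferon-response pair (GAAANNGAAA, 2.98%) and a C/EBP motif (TTGCNNAA, 9.56%). None of the windows of Ms4a3, Ms4a4c, Ms4a6b, Ms4a6c or Ms4a7 held these letters. RefSeq windows were matched for these 5 of the 6 members, with 2 start sites for Ms4a7. Ms4a6d had no window and was not searched. A match is a description of letters and shows no binding.

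Genes of proteins linked to MS4A proteins were listed separately, and not all of them are partners of HTm4. Cdkn3, the cyclin-dependent kinase-associated phosphatase that HTm4 binds in the control of the cell cycle, stood at 7.75 RPKM in NTB-GMP against 7.24 RPKM in 4T1-GMP. Its log2 ratio was -0.10 (interval -0.53 to 0.35). Cdk2, the kinase that the phosphatase acts on, stood at 33.1 and 37.0 RPKM, a log2 ratio of 0.16 (interval -0.07 to 0.39). Neither interval excluded equal levels. Csf2rb, the common beta chain of the IL-3, IL-5 and GM-CSF receptors, stood at 26.0 and 46.7 RPKM, a log2 ratio of 0.85 (interval 0.76 to 0.94). Its close relative Csf2rb2, the IL-3-specific beta chain, was at 6.45 and 4.63 RPKM (log2 ratio -0.47), and Csf2ra, the GM-CSF receptor alpha chain, was at 24.9 and 33.2 RPKM (log2 ratio 0.42).

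Ms4a6c and Ms4a6b were the next most abundant members in NTB-GMP, and both were lower in 4T1-GMP. They belong to the Ms4a6 branch, whose members are best known from monocytes and macrophages, and Ms4a6b also from T cells. Ms4a6c (chromosome 19, 11469366 to 11482192, plus strand) stood at 20.6 RPKM in NTB-GMP from 430 reads and at 8.43 RPKM in 4T1-GMP from 519 reads. The NTB-GMP level was 2.44 times that of 4T1-GMP, with a log2 ratio of -1.28 (interval -1.48 to -1.10), and 96.8% of the genes tested had a higher ratio. Ms4a6b (11516512 to 11531256, plus strand) stood at 5.65 RPKM in NTB-GMP from 97 reads and at 2.65 RPKM in 4T1-GMP from 134 reads. Its log2 ratio was -1.07 (interval -1.48 to -0.70). The Ms4a6b interval reaches to the near side of 2-fold. Its log2 ratio was -0.87 with a pseudocount of 1 and -0.90 after quantile normalization, both short of 2-fold.

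Ms4a6c and Ms4a6b kept nearly the same proportion to each other, with Ms4a6c at 3.64 times Ms4a6b in NTB-GMP and 3.18 times in 4T1-GMP. Over the same libraries Ms4a3 went from 23.3 to 145 times Ms4a6c. The genes nearest to Ms4a6c in their pair of levels were Gm1966, Atp2b4, a plasma membrane calcium pump gene, and Zmiz1, all within a distance of 0.10. Those nearest to Ms4a6b were 2310039L15Rik, Nwd1 and Zfp783, within 0.04.

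Ms4a6b and Ms4a6c are close copies. Their coding sequences were 85.3% identical over 645 aligned bases, against 59.3% for Ms4a3 and Ms4a6c. Their promoter windows were 85.1% identical over 175 aligned bases and shared an unbroken run of 48 bases, whereas no other pair of windows of different members shared a run longer than 12 bases. Parts of both windows are printed to show this likeness, with capitals for the 24-base run that they share outside exons of coding transcripts. The Ms4a6b stretch is chr19:11518309-11518452 and the Ms4a6c stretch chr19:11469118-11469318, both on the plus strand of GRCm38.p6.
Ms4a6b: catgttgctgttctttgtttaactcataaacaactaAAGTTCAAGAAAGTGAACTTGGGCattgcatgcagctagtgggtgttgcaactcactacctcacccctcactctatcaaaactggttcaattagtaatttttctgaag
Ms4a6c: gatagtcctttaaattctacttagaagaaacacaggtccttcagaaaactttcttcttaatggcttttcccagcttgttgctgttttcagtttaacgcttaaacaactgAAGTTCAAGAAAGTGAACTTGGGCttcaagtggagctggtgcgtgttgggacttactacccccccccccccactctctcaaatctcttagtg
The run covers positions -214 to -191 before the RefSeq start of Ms4a6b and -141 to -118 before that of Ms4a6c. The rest of the Ms4a6b window, its last 106 bases, lies in an exon of a coding transcript in GENCODE M21, in which the gene starts further upstream. It is not printed, and neither are the last 49 bases of Ms4a6c, which hold the longer run.

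The likeness of the Ms4a6 genes bears on how their reads can be told apart. Of the 50-base windows in the longest coding transcript, 5.66% for Ms4a6b and 6.08% for Ms4a6c also occurred in another Ms4a gene. For Ms4a6c, 53.1% of its exon bases overlap exons of BE692007, a transcript on the opposite strand that is not a listed symbol. Whether the reads were counted by strand is not given in the sources used here, so that reads of Ms4a6c and BE692007 cannot be told apart. For Ms4a3 no window was shared with another gene.

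Ms4a6d (11586604 to 11604849, minus strand), the third member of the Ms4a6 branch, went the opposite way. It stood at 0.645 RPKM in NTB-GMP from 9 reads and at 2.72 RPKM in 4T1-GMP from 112 reads. The log2 ratio was 1.92, with an interval on the read ratio of 1.10 to 3.24. Of the genes tested, 1.0% had a higher ratio. Ms4a6d was tested only through its 4T1-GMP value, so this rank is partly set by the filter. The width of that interval comes from the 9 reads in NTB-GMP. Ms4a6c stood at 31.9 times Ms4a6d in NTB-GMP and at 3.10 times in 4T1-GMP. The coding sequence of Ms4a6d was 81.3% identical to that of Ms4a6b and 79.1% to that of Ms4a6c, and 2.92% of its 50-base windows were shared with other genes. Nearest in level were Fbxo36, Tex15 and Nrp2, a neuropilin gene, all within a distance of 0.11.

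Ms4a4c (11404770 to 11427246, plus strand), known from inflammatory monocytes, stood at 1.14 RPKM in NTB-GMP from 20 reads and at 0.155 RPKM in 4T1-GMP from 8 reads. Its mean of 0.647 RPKM was under the minimum of 1, so it is in none of the counts of members past 2-fold. The log2 ratio was -2.28 with the pseudocount, and the interval on the read ratio was -4.27 to -1.64. With a pseudocount of 1 the log2 ratio was -0.89. Its coding sequence was 91.8% identical to that of Ms4a4b and 87.9% to that of Ms4a4d, and 8.48% of its 50-base windows were shared with these genes, so that reads could be assigned to the wrong copy. Ms4a4b had 2 recovered reads in each library and Ms4a4d was at 0 in both.

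Ms4a7 (11321039 to 11336146, minus strand), a gene of mature macrophages, was listed at 0 in both libraries. Over its longest transcript, a chosen floor of 3 reads would have given 0.0817 RPKM in NTB-GMP against 0.0277 RPKM in 4T1-GMP. Fewer reads would give lower values and a shorter counted length higher ones, so these are no limits of detection. The macrophage genes listed beside it varied in level. Vcam1, an adhesion molecule, stood at 16.7 and 18.96 RPKM and Cd68, a lysosomal glycoprotein, at 7.40 and 6.39 RPKM. C1qb, a chain of complement C1q, had 11 reads in NTB-GMP and none in 4T1-GMP, and Marco and Mertk, a scavenger receptor and an efferocytosis receptor, were at 0 in both.

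In order of level, the members in NTB-GMP ran Ms4a3, Ms4a6c, Ms4a6b, Ms4a4c, Ms4a6d and Ms4a7. The exact Poisson intervals of Ms4a4c (0.696 to 1.76 RPKM) and Ms4a6d (0.295 to 1.22 RPKM) overlapped, so these neighbours did not differ beyond counting error. In 4T1-GMP the order was Ms4a3, Ms4a6c, Ms4a6d, Ms4a6b, Ms4a4c and Ms4a7. There Ms4a6d (2.24 to 3.27 RPKM) and Ms4a6b (2.22 to 3.13 RPKM) overlapped. The other neighbours above 0 were separated by more than their intervals.

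**Figure D3:**
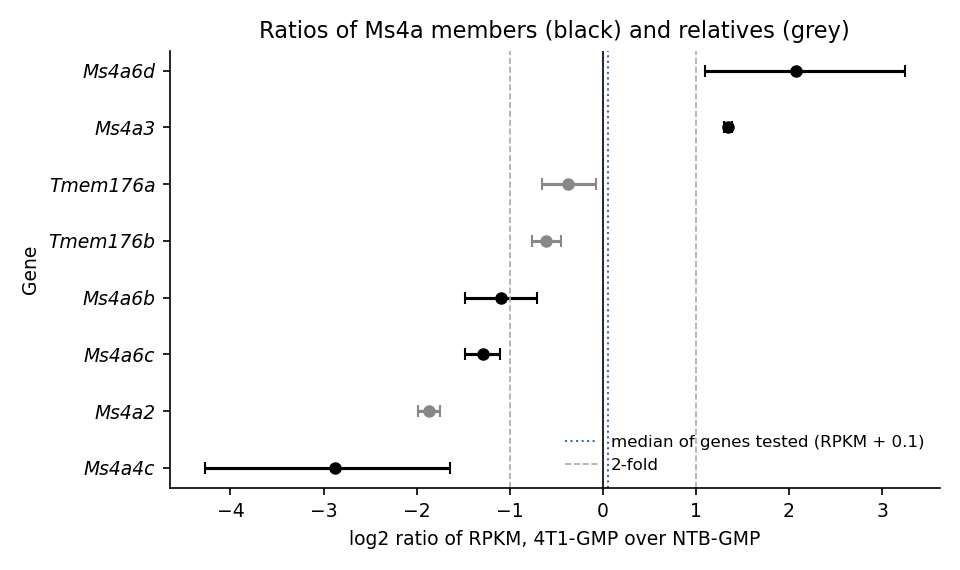
Log2 ratio of RPKM without a pseudocount, 4T1-GMP over NTB-GMP, with 95% Clopper-Pearson intervals on the reads, for the 5 members above 0 (black) and Ms4a2, Tmem176a and Tmem176b (grey). Ms4a6d and Ms4a3 lie right of the 2-fold line, the Ms4a6b interval crosses the line on the left, and the Ms4a4c interval is the widest.

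Among the other 11 Ms4a symbols, only Ms4a2 reached a mean RPKM of 1. It stood at 47.9 RPKM in NTB-GMP from 1373 reads and at 13.1 RPKM in 4T1-GMP from 1110 reads, and so was second to Ms4a3 in both. Its log2 ratio was -1.86 (interval -1.98 to -1.75), and 98.6% of the genes tested had a higher ratio. Ms4a2 lies next to Ms4a3 in the cluster, and the pair differed in opposite directions. The other chains of the IgE receptor had smaller differences: Fcer1a, the alpha chain, stood at 18.6 and 14.2 RPKM (log2 ratio -0.39, interval -0.74 to -0.03), and Fcer1g, the gamma chain shared with Fc gamma receptors, at 22.2 and 13.5 RPKM (log2 ratio -0.72, interval -1.02 to -0.42). Ms4a1 had 2 reads in NTB-GMP and none in 4T1-GMP, and Ms4a8a had none and 3. With Ms4a4b these are too few reads for a fold. Ms4a4a, Ms4a4d, Ms4a5, Ms4a10, Ms4a13, Ms4a15 and Ms4a18 were at 0 in both libraries, as were 1700017D01Rik and 1700025F22Rik, older symbols of Ms4a20 and Ms4a19, and Gm8369, which lies between Ms4a6c and Ms4a6b. Over all 17 symbols, 5 were tested, with 2 past 2-fold higher and 3 past 2-fold lower. Among all genes tested the shares were 3.25% and 4.92%. The count lower was 2 with a pseudocount of 1 and also 2 after quantile normalization.

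The cluster spans 679 kb of chromosome 19, from 10962293 to 11640851, and GENCODE M21 places 35 genes in it. Ms4a genes above 1 RPKM were found toward its right-hand end, where Ms4a4c, Ms4a6c, Ms4a6b, Ms4a6d, Ms4a2 and Ms4a3 lie between 442.5 and 667.2 kb from the left end, with Ms4a4b and Ms4a4d at or near 0 among them. In the left part, no Ms4a gene had more than 3 recovered reads. AW112010, a noncoding RNA gene in that left part, stood at 9.13 and 10.02 RPKM (log2 ratio 0.13). Both directions occurred side by side, with Ms4a6d higher and Ms4a2 lower between Ms4a6b and Ms4a3. Beyond Ms4a3, the oocyte gene Oosp1 stood at 0.563 and 1.76 RPKM, and Oosp2 at 0 and 0.198 RPKM. On the other side Ccdc86 stood at 11.0 and 14.7 RPKM and Ptgdr2, a prostaglandin D2 receptor gene, at 0.149 and 0 RPKM.

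**Figure D4:**
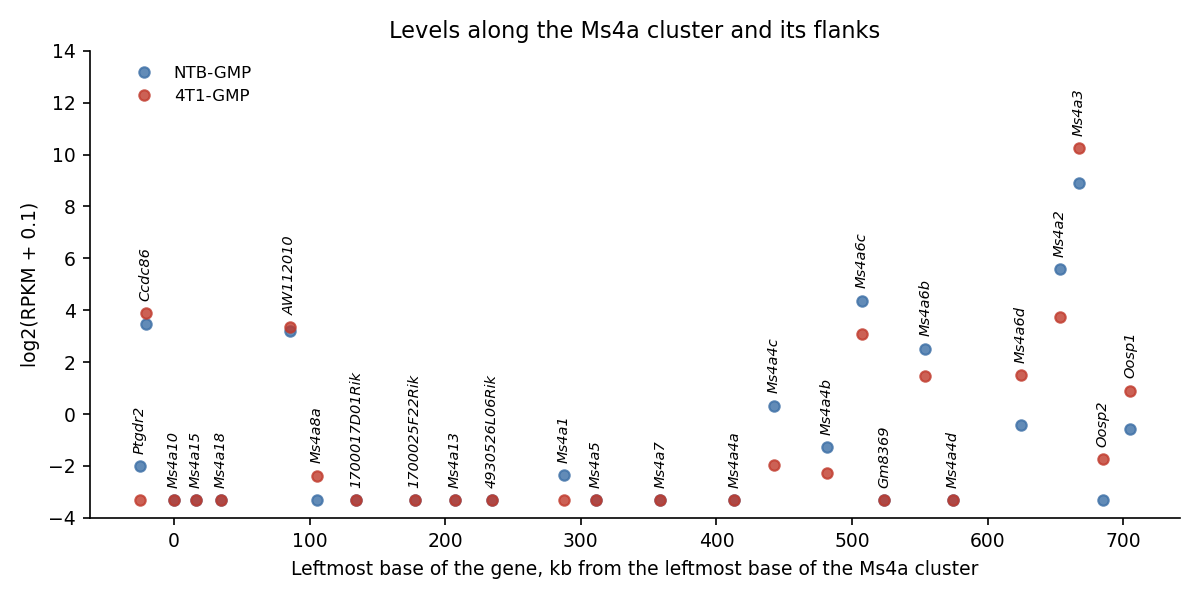
Log2(RPKM + 0.1) of the listed genes in the Ms4a cluster and of 2 genes on each side, in NTB-GMP (blue) and 4T1-GMP (red), against the kb from the left end of the cluster. Points at the bottom are genes listed at 0, and the highest point is Ms4a3 at the right-hand end of the cluster, with low and high genes mixed to its left.

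Ms4a4a, the family member known to act with the beta-glucan receptor dectin-1, was at 0, whereas Clec7a, which encodes dectin-1, stood at 4.35 and 7.65 RPKM (log2 ratio 0.80, interval 0.50 to 1.13). Trem2, a lipid receptor linked to Ms4a genes in macrophages and microglia, had no read in NTB-GMP and 1 in 4T1-GMP, and its adaptor Tyrobp stood at 110 and 114 RPKM (log2 ratio 0.06). Lyn, a kinase of receptor signalling, stood at 20.6 and 28.1 RPKM (log2 ratio 0.44). Over the list of 11 partner genes, 10 were tested and 0 were past 2-fold in either direction. The median log2 ratio of the list was 0.11, beside 0.05 for all genes tested, and was -0.05 with library sizes that omit Rn45s and -0.02 after quantile normalization. Tmem176a and Tmem176b, which encode membrane proteins related to the MS4A proteins, stood at 12.7 and 9.85 RPKM (log2 ratio -0.37, interval -0.66 to -0.08) and at 25.0 and 16.4 RPKM (log2 ratio -0.60, interval -0.76 to -0.45), and neither was past 2-fold.

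Genes of other myeloid cell states differed between the libraries together with the Ms4a genes. In bulk RNA, fewer cells of a type and less RNA per cell cannot be told apart. Genes of the neutrophil lineage, listed as mature neutrophil though they include granule genes, were higher in 4T1-GMP. Of these, 12 of 13 were past 2-fold, with a median log2 ratio of 2.94. Among all genes tested, 3.25% were past 2-fold higher. The list was chosen with earlier results of these data known. Ly6g, Mmp8 and Mmp9 were under 1 RPKM in NTB-GMP and were tested only through their 4T1-GMP values. The summed level of the 13 genes was 521 RPKM in NTB-GMP against 4083 RPKM in 4T1-GMP. Mmp9 and Mmp8, metalloproteinases stored in neutrophil granules, had the largest ratios (log2 ratios 4.52 and 4.51). Ly6g, the antigen that defines mouse neutrophils, was at 0.426 RPKM in NTB-GMP from 4 reads and at 4.30 RPKM in 4T1-GMP from 119 reads. None of the 13 was at 0 in either library. The GMP sort in the study's methods removes Gr-1+ cells, but it is given for GMPs that were then cultured. Those methods describe no sort for these 2 libraries, and the labels name only flow cytometry. The part of mature neutrophils in the Ms4a3 and Ms4a6d levels was not tested.

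Of 10 genes of the GMP gate and primary granules, 2 were past 2-fold higher and 1 was past 2-fold lower, with a median log2 ratio of 0.29 and a summed level of 10227 RPKM in NTB-GMP against 15189 RPKM in 4T1-GMP. The counts became 1 higher and 2 lower with library sizes that omit Rn45s, and likewise after quantile normalization, so the balance of the list depends on the scaling. None was at 0 in either library. Among primary granule genes, Prtn3 (1399 and 3311 RPKM, log2 ratio 1.24) and Ctsg (1388 and 2998 RPKM, log2 ratio 1.11) had the highest ratios, beside 0.66 for Elane and 0.12 for Mpo. Cd34, a progenitor surface marker, stood at 154 and 59.4 RPKM (log2 ratio -1.37). The 2 receptors of the CD16/32 gate differed in opposite directions. Fcgr3 stood at 53.1 and 28.6 RPKM (log2 ratio -0.89) and Fcgr2b at 47.3 and 64.6 RPKM (log2 ratio 0.45, interval 0.33 to 0.57).

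Monocyte genes had a median log2 ratio of -0.67 over the 8 tested of 11, with 3 past 2-fold lower and 0 past 2-fold higher, and summed to 249 and 187 RPKM. Ly86, also called MD-1, was at 9.56 and 0.969 RPKM (log2 ratio -3.18) and Cx3cr1, the fractalkine receptor, at 3.72 and 0.994 RPKM (log2 ratio -1.80). Cd14, the lipopolysaccharide co-receptor, was at 3.61 and 7.30 RPKM (2.02-fold without a pseudocount), and Lyz2, lysozyme, had a log2 ratio of 0.18. Cd14 was not counted as past 2-fold on the scale with 0.1 RPKM added, but 1 monocyte gene was with a pseudocount of 0.01 or after quantile normalization. Fcgr1 was the only one of the 11 at 0, in NTB-GMP, and had 4 reads in 4T1-GMP. Dendritic cell genes were lower as well, with 5 of 7 tested past 2-fold, a median log2 ratio of -2.62 and sums of 145 and 38.4 RPKM over the 13 listed. The class II genes H2-Aa (log2 ratio -3.52) and H2-Ab1 (-3.40) were the lowest. Zbtb46 and Batf3, transcription factors of conventional dendritic cells, were at 0 in 4T1-GMP, but had only 6 reads and 1 read in NTB-GMP. Of the 8 monocyte genes tested, 5 were lower and 3 were higher. Ms4a6c, Ms4a6b and Ms4a4c had the same direction as the median of these lists, whereas Ms4a6d had the opposite direction (log2 ratio 1.92). The part of monocyte or dendritic progenitors in the levels of these members was not tested.

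Mast cell and basophil genes, the company of Ms4a2, had a median log2 ratio of -1.42 over 7 tested genes, with 4 past 2-fold lower and 0 past 2-fold higher, and summed to 523 RPKM in NTB-GMP against 251 RPKM in 4T1-GMP. Gata2, a transcription factor of mast cells and early progenitors, stood at 29.5 and 5.14 RPKM (log2 ratio -2.50), Cma1, a mast cell chymase, at 2.28 and 0.557 RPKM (-1.86), and Tpsab1, a mast cell tryptase, was at 0 in both. Ms4a2, at -1.86, lay within the range of the list, -2.50 to -0.39. The part of basophil or mast cell progenitors in the Ms4a2 level was not tested.

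**Figure D5:**
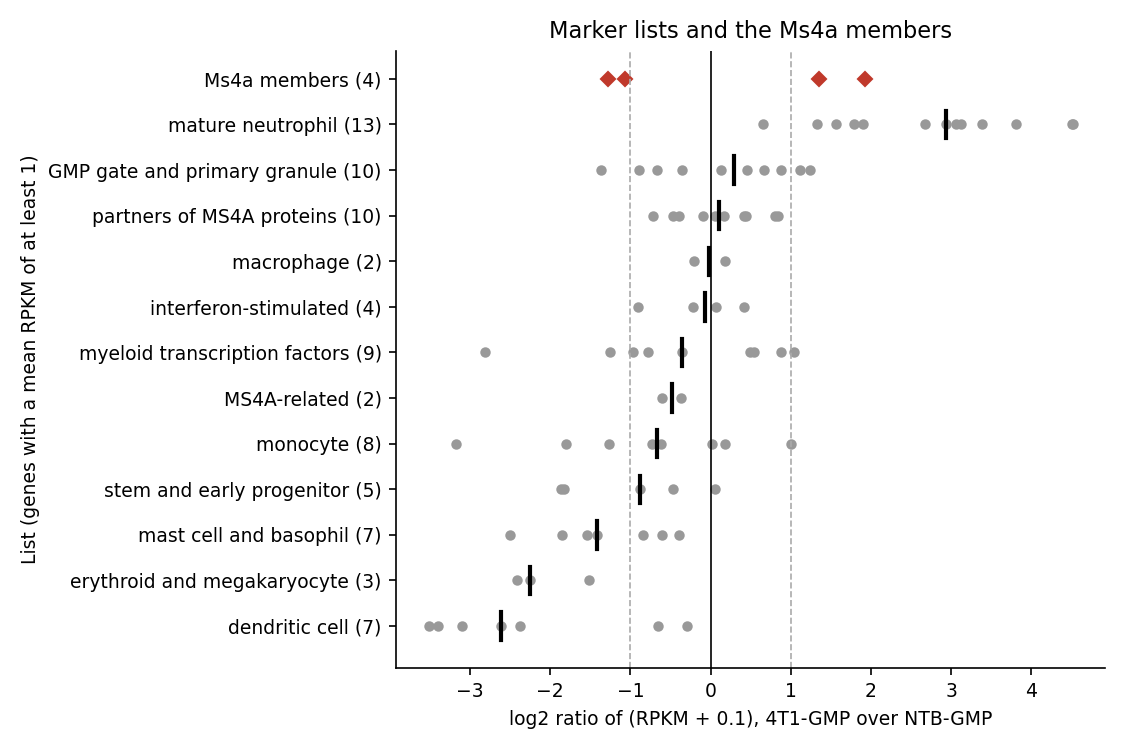
Log2 ratio of (RPKM + 0.1), 4T1-GMP over NTB-GMP, of each gene with a mean RPKM of at least 1 (grey points) in the lists with at least 2 such genes, with the list median as a black bar, dashed lines at 2-fold and the 4 tested Ms4a members as red diamonds. Neutrophil genes lie to the right, dendritic, erythroid and mast cell genes to the left, and the Ms4a members fall on both sides.

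Of the transcription factors of GMP fate, 9 of 12 were tested, with 1 past 2-fold higher, 2 past 2-fold lower and a median log2 ratio of -0.36. With library sizes that omit Rn45s, 0 were past 2-fold higher and 3 lower, and with a pseudocount of 1, 0 were higher. The median was 0.07 with a minimum mean RPKM of 5. Irf8, which directs GMPs toward monocytes and dendritic cells, stood at 32.0 RPKM in NTB-GMP against 4.45 RPKM in 4T1-GMP, a log2 ratio of -2.82 (interval -3.00 to -2.68). Runx1 stood at 26.4 and 11.0 RPKM (log2 ratio -1.26), Zeb2 at 29.8 and 15.1 RPKM (-0.97) and Egr1 at 2.65 and 1.51 RPKM (-0.78). Klf4, a monocyte factor, was at 1.48 and 0.120 RPKM, below the minimum mean. On the granulocyte side, Cebpb, a factor of emergency granulopoiesis, stood at 5.76 and 11.9 RPKM (log2 ratio 1.04), Gfi1, a repressor that favours neutrophils, at 45.0 and 82.7 RPKM (0.88) and Cebpe, a factor of granule formation, at 48.5 and 70.4 RPKM (0.54). Spi1, which encodes PU.1, stood at 63.9 and 90.1 RPKM (log2 ratio 0.50, interval 0.39 to 0.60), and Cebpa, a factor needed to form GMPs, at 45.6 and 35.5 RPKM (-0.36). Irf4 had 3 reads in NTB-GMP and 1 in 4T1-GMP.

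Other lists gave little that touched the members. Erythroid and megakaryocyte genes had 3 tested genes, all past 2-fold lower, with a median log2 ratio of -2.26. Klf1 (log2 ratio -2.42) and Gata1 (-2.26), both erythroid transcription factors, were the lowest, and Hbb-b1 and Hba-a1 were listed at 0 in both libraries. Stem and early progenitor genes had a median of -0.88 over 5 tested genes, with 2 past 2-fold lower, Sox4 (-1.87) and Meis1 (-1.83), beside Hoxa9 at 0.06. Interferon-stimulated genes, listed because some Ms4a genes respond to interferon, had a median of -0.08 over 4 tested genes, none past 2-fold, from Irf7 at -0.91 to Oas1a at 0.42. The 2 macrophage genes tested, Vcam1 (0.18) and Cd68 (-0.21), had a median of -0.01. In the B cell list only Cd79b was tested (-0.24), and in the T and NK cell list only Nkg7 (0.82), a granule protein gene. Pax5 of B cells was at 0 in 4T1-GMP and Vpreb1 in NTB-GMP, C1qc of macrophages was at 0 in 4T1-GMP, Ly6a (Sca-1) of stem cells and Cd8a and Ncr1 of T and NK cells were at 0 in NTB-GMP, and Cd3g was at 0 in both. Those at 0 in only 1 library had 4 reads or fewer in the other.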

How the data were processed

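Expression was measured by bulk RNA-seq in 1 NTB-GMP and 1 4T1-GMP library. The authors deposited RPKM per gene symbol. The submitters' processing notes name mm10, CASAVA 1.8.2, cutadapt 1.2.1, TopHat2 2.0.13, Picard 1.97, HTSeq 0.6.1 and edgeR 3.12.1. The annotation, gene lengths, read length and strand setting are not given in the sources used here. A gene's RPKM depends on which reads entered the library size, here with Rn45s.

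Whole reads were recovered from the full-precision RPKM. RPKM and GENCODE transcript lengths together give a gene's library size divided by its reads, which for genes with 1 read is the library size itself. It recurred to 10 significant digits for 187 genes at 10180365.24 in NTB-GMP and for 185 genes at 30016262.80 in 4T1-GMP. These are not whole numbers, as sizes multiplied by a normalization factor would be. Reads were accepted within a relative tolerance of 3e-12. Recovered reads can be too low by a common factor, which widens intervals. Recovery was tested on simulated data.

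Genes were compared where their mean RPKM reached 1, on log2(RPKM + 0.1). With 1 library per group no test was made, and past 2-fold was the rule for counts. Named were the members, the other Ms4a symbols, the genes of the cluster with 2 flanking genes on each side, the genes of the transcription factor, partner and related lists, the largest rises and falls of the other lists with markers at 0, and the 3 genes nearest to each member tested. Mpo, Elane, Kit, Fcgr2b, Ly6g and S100a9 were named after their values were seen. The members and lists were chosen with earlier results of these data known.

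Positions, exon overlaps and coding sequences came from GENCODE M21, and promoters from RefSeq, GRCm38.p6. Coding sequences, the longest open reading frames of coding transcripts, and promoters were aligned in pairs, and identity is over aligned bases. Python 3.11.15, numpy 2.4.6, pandas 2.3.3, scipy 1.17.1, matplotlib 3.10.9 and Biopython 1.88 were used. Alternatives were pseudocounts of 1 and 0.01, library sizes without Rn45s, quantile normalization, all genes above 0 and a minimum mean RPKM of 5. Values of some list genes are not reported here.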

Additional observations from a re-analysis of the deposited data

How the results depend on the processing

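The 5 members above 0 kept their direction under every alternative run. Leaving Rn45s out of the library sizes moved the log2 ratio of Ms4a3 to 1.18 and quantile normalization moved it to 1.19, both outside its counting interval. A pseudocount of 1 moved Ms4a4c to -0.89 and Ms4a6b to -0.87, and quantile normalization moved Ms4a6b to -0.90. The number of members past 2-fold lower was then 1 under a pseudocount of 1, 1 under quantile normalization and 1 with a minimum mean RPKM of 5. With that minimum, 1 member and 1 Ms4a symbol were past 2-fold higher. Over all genes above 0, the Ms4a symbols past 2-fold lower numbered 5. They include Ms4a4b, whose 2 reads in each library are too few for a fold. The share of all genes past 2-fold was 4.95% higher and 8.40% lower over all genes above 0, and 2.13% higher and 2.27% lower with the minimum of 5. The share lower was 2.88% with a pseudocount of 1. The median of the stem and early progenitor list passed 2-fold without Rn45s (-1.04) and with the minimum of 5 (-1.15). Of the 84 list medians recomputed, the other 82 stayed on their side of 2-fold, though the medians of the transcription factor, partner and interferon-stimulated lists, all within 2-fold, changed sign under at least 1 alternative. Of 168 list counts, 18 moved, either by over 1.5 times or to or from 0. The cause of these changes was not tested beyond what each alternative changes. No library could be left out, since each group had 1. No paired analysis was possible because there was no second pair. Few reads stood behind Ms4a6d in NTB-GMP (9) and Ms4a4c in 4T1-GMP (8), and none behind Ms4a7 in either.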
